A study of Mus musculus with 3 samples.

Results

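Eya1 to Eya4, Dach1, Dach2, Six2 and Six4 are 8 mouse genes of the eyes absent, dachshund and sine oculis families, and the question here was where peaks of the transcription factor Atoh7 lie around them. A peak was counted for a gene when its midpoint fell inside the RefSeq body of the gene, meaning the annotated span between its ends, or within 100 kb of it. By this rule 10 peaks of the 3668 in the list were counted, at 4 of the 8 genes. Atoh7 is a basic helix-loop-helix protein of neurogenic retinal progenitors. It was profiled by CUT&RUN, an assay that uses an antibody to bring a nuclease to the bound protein, so that the DNA around it is cut free. The Atoh7 group held 2 libraries made with an Atoh7 antibody, and the control group 1 library made with IgG. All 3 came from retina of C57Bl6/J mice at embryonic day 14, and the labels give no mutant allele or agent. The labels do not say whether animals were pooled.

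The list gives a position and a width for each peak, on the mm10 build, and neither a height nor a value per library. Read depth is therefore unknown. Neither the agreement of the Atoh7 libraries nor the signal of the IgG library is analysed here. No test was possible with 1 list, and each share below is set beside the same share over all protein-coding genes or all peaks.

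Eya proteins carry no DNA-binding domain of their own. They act as transcriptional co-activators bound to homeodomain proteins of the sine oculis family and also have phosphatase activity, while Dach proteins, relatives of Ski and Sno, act mainly as co-repressors. The network that joins them with Pax genes was first worked out in the Drosophila eye, and members of all these families are expressed in the developing vertebrate eye.

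Peaks were found at Eya2, Dach1, Dach2 and Six2, and none at Eya1, Eya3, Eya4 and Six4. Dach1 held 4 peaks, Six2 held 3, Eya2 held 2 and Dach2 held 1. By family, 1 of 4 Eya genes, 2 of 2 Dach genes and, of Six2 and Six4, 1 held a peak. The share of genes with a peak was 50% (4 of 8, 95% Wilson interval 21.5 to 78.5%, which covers the counting of genes only), against 34.9% of all 21631 protein-coding genes. That background lies inside the interval, so the count by the 100 kb rule does not set the 8 genes apart. At least 3 peaks were held by 2 of the 8 genes, Dach1 and Six2, against 4.84% of all protein-coding genes. All 3 peaks of Six2 also lay within 100 kb of a neighbouring gene, Six3. Within 50 kb, 4 of the 8 genes had a peak, against 24.4% of all, and within 10 kb 3 of the 8 did, against 12.4%. As the nearest protein-coding gene of a peak, 4 of the 8 were counted, against 11.1%. The 8 genes were chosen with earlier results of these data known, and none of these differences was tested. These shares are not matched for gene length. From peaks at least as wide as the median of the list, 3 of the 8 held one, against 20%. The median number of peaks was 0.5 for the 8 genes and 0 for all protein-coding genes. Per length of window, meaning the body plus 100 kb on each side, the 8 genes together had 0.311 peaks per 100 kb. Over the windows of all protein-coding genes the value was 0.225. There, windows of neighbouring genes overlap and a peak can count for several genes, whereas each of the 10 peaks counted for only 1 of the 8.

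**Figure D1:**
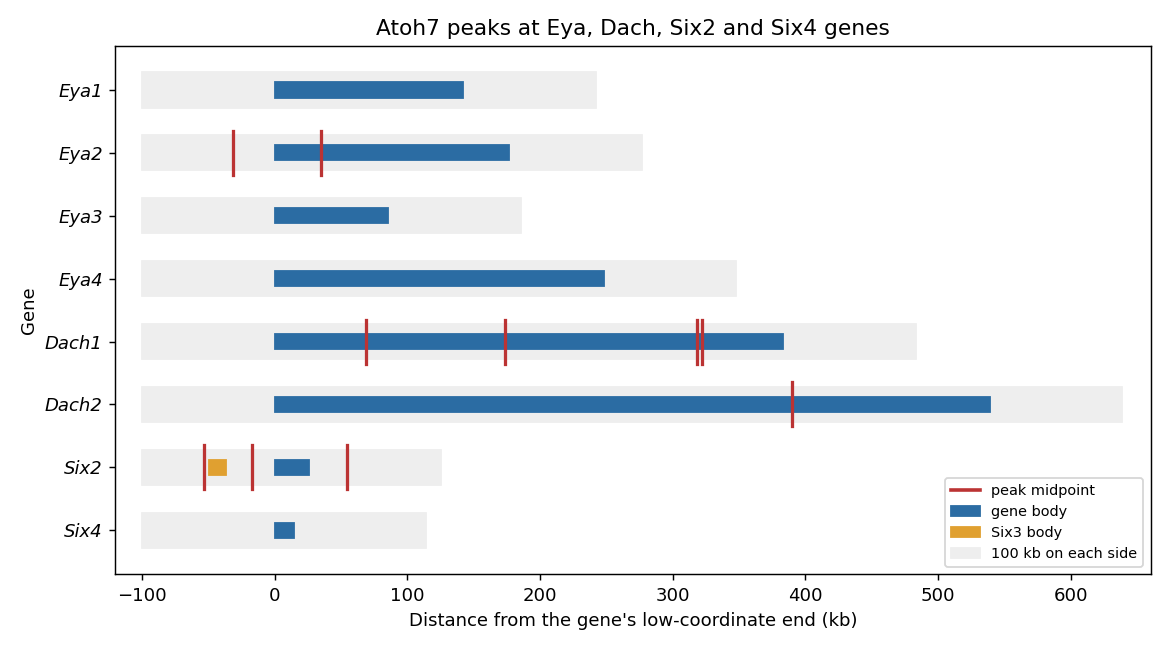
Each row is 1 gene drawn to scale, with distance in kb from the low-coordinate end of its body on the x axis. Blue bars are gene bodies, grey bands reach 100 kb beyond them, and red lines are midpoints of Atoh7 peaks. The 4 peaks of Dach1 and the 1 of Dach2 lie inside the bodies, the 3 of Six2 lie outside its body, 2 of them on either side of Six3 (orange) and 1 beyond the other end of Six2, and 4 rows have no peak.

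Dach1 encodes a nuclear co-repressor that is expressed in retinal progenitors and other embryonic tissues. Its body spans chromosome 14 from 97786846 to 98169765 (382.9 kb, minus strand). All 4 peaks were centred inside it. They lay at 97855280 to 97855679 (400 bp wide), 97960190 to 97960781 (592 bp), 98104577 to 98104887 (311 bp) and 98108862 to 98109253 (392 bp). Measured from the 5′ end of the gene, their midpoints were 314, 209, 65.03 and 60.7 kb into the body. Thus 2 of the peaks sat in the first 17.0% of the gene, and the others lay at 54.7% and 82.1% of its length.

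The 2 peaks nearest the 5′ end of Dach1 formed a pair, with midpoints 4.33 kb apart. Over the whole list, 5.57% of neighbouring peaks on a chromosome (203 of 3642) lay that close or closer. That share is for any single gap, whereas this pair was picked as the closest within Dach1. The share therefore does not measure how unusual the pair is. The remaining gaps within Dach1 were 105 and 144 kb. Beyond the gene the list was empty for a long way, the nearest further peaks lying 1268 kb and 2450 kb from the body. Peak names carry a running number, and across this span of 4.1 Mb the numbers were complete, from 2122 to 2127, whereas 51.1% of numbers are present over the whole list. The annotation used gives no exons, so exon and intron could not be told apart. An snRNA gene, Gm25831, inside Dach1 had an end 7.34 kb from the peak that is 592 bp wide.

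Dach2, the X-linked relative of Dach1, spans 113297496 to 113836386 on chromosome X (538.9 kb, plus strand). Its single peak, at 113687043 to 113687312, was 270 bp wide and was centred 389.7 kb from the 5′ end, 72.3% of the way through the gene. The nearest further peak lay 4184 kb from the body. The longest of the 8 genes thus held 1 peak, and Dach1, which is shorter, held 4.

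Gene length matters to such counts. Of protein-coding genes with bodies of 200 to 400 kb, the class of Dach1 and Eya4, 46.4% held a peak by the same rule. In that class 8.46% held at least 3 and 4.08% held at least 4. Over all protein-coding genes, 1.88% held at least 4. In the class of Dach2, 400 kb and longer, 48.9% held a peak. In the class of Eya1 and Eya2, 100 to 200 kb, 41.4% did so, and in that of Eya3, 50 to 100 kb, 37% did so. Under 50 kb, the class of Six2 and Six4, 33.2% held a peak and 4.48% held at least 3.

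**Figure D2:**
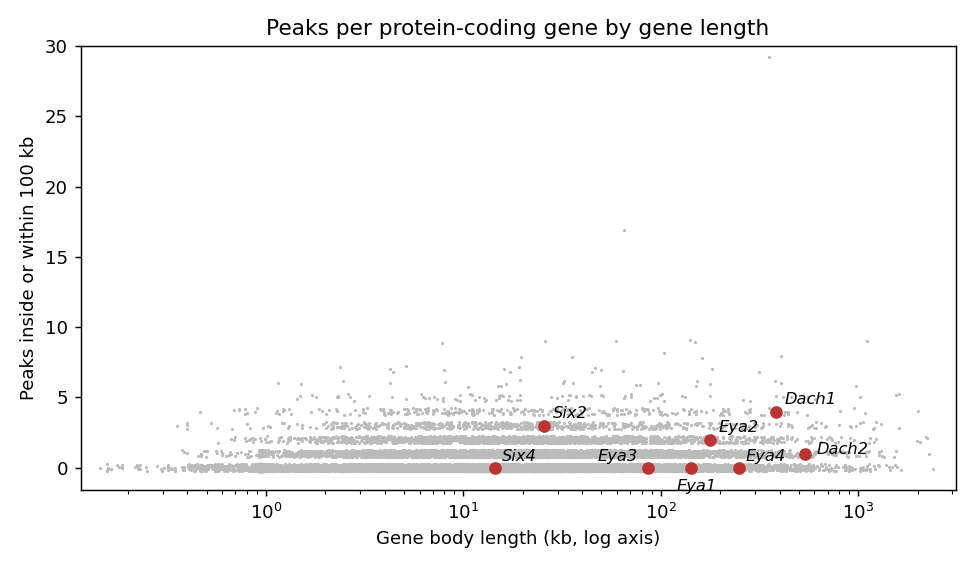
Each grey point is 1 of 21631 protein-coding genes and each red point 1 of the 8 genes, by body length in kb (log axis) and number of peaks inside or within 100 kb. Grey points are spread slightly up and down around whole numbers. Dach1 stands at 4 peaks and Six2 at 3, while Eya1, Eya3, Eya4 and Six4 stand at 0.

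Eya2 was the only Eya gene with a peak. It encodes a co-activator that homeodomain partners bring to DNA. The body lies on chromosome 2 at 165595028 to 165771727 (176.7 kb). A peak inside it, at 165629886 to 165630294, was 409 bp wide and was centred 35.1 kb from the low-coordinate end. The other, at 165563391 to 165563993, was 603 bp wide and was centred 31.3 kb outside the same end, in sequence with no annotated gene, and Eya2 was its nearest protein-coding gene. The midpoints were 66.4 kb apart. At least 2 peaks within 100 kb were held by 13.2% of protein-coding genes. The next peaks beyond the window lay 198 and 380 kb from the body.

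The other Eya genes had no peak within 100 kb. Eya1, needed for ear and kidney development, lies on chromosome 1 at 14168953 to 14311035 (142.1 kb), and its nearest peak was 1991 kb away. Only 6.48% of protein-coding genes had their nearest peak that far or farther. Eya4, mutated in a form of hereditary hearing loss in humans, lies on chromosome 10 at 23102962 to 23350838 (247.9 kb), and its nearest peak was 259 kb away. Eya3 lies on chromosome 4 at 132639025 to 132724765 (85.7 kb), and its nearest peak was 198 kb away. The median distance over all protein-coding genes was 208 kb, so Eya3 and Eya4 were close to the median while Eya1 lay far out.

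Around a gene without a peak, gaps in the running numbers were counted as well. The peaks on either side of Eya3 carry the consecutive numbers 4782 and 4783, so no number is missing between them. Between the peaks on either side of Eya1, which are 5.03 Mb apart, 4 numbers are absent, for Eya4 5 are absent over 3.3 Mb, and for Six4 3 are absent over 0.999 Mb. Around the genes with peaks, 4 were absent for Eya2, 3 for Dach2 and 5 for Six2, and none for Dach1. The positions that belonged to absent numbers are not known, so none can be placed at these genes.

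Six2 encodes a homeodomain factor best known for maintaining kidney nephron progenitors. It lies on chromosome 17 at 85662736 to 85688254 (25.5 kb, minus strand), next to Six3, an eye-field gene, at 85613608 to 85626191. All 3 peaks counted for Six2 also lay within 100 kb of Six3. The peak at 85609060 to 85609646 (587 bp) was 53.4 kb from Six2 but 4.26 kb from Six3, inside the long noncoding RNA gene Six3os1. The peak at 85645556 to 85646254 (699 bp) lay between both genes, 16.8 kb from Six2 and 19.7 kb from Six3, in sequence with no annotated gene. The peak at 85717142 to 85717418 (277 bp) lay on the far side of Six2, 29.03 kb from its 5′ end and 91.1 kb from Six3, inside the long noncoding RNA gene CJ186046Rik. By nearest protein-coding gene, 2 of the 3 belonged to Six2 and 1 to Six3. With 3 peaks in a window of 225.5 kb, Six2 had the highest density of the 8 genes, 1.33 per 100 kb, against 0.686 at Dach1, 0.531 at Eya2 and 0.135 at Dach2.

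Six4, a homeodomain factor active in muscle and other tissues, lies on chromosome 12 at 73099609 to 73114031 (14.4 kb). Its nearest peak was 268 kb away. Six6, an eye-field gene of the same neighbourhood, had none either, the same peak lying 108 kb from it. Of the other genes of that family named here, Six3 held the 3 peaks described above and Six5 held 1, centred 0.535 kb outside its body and 0.188 kb from Dmpk.

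**Figure D3:**
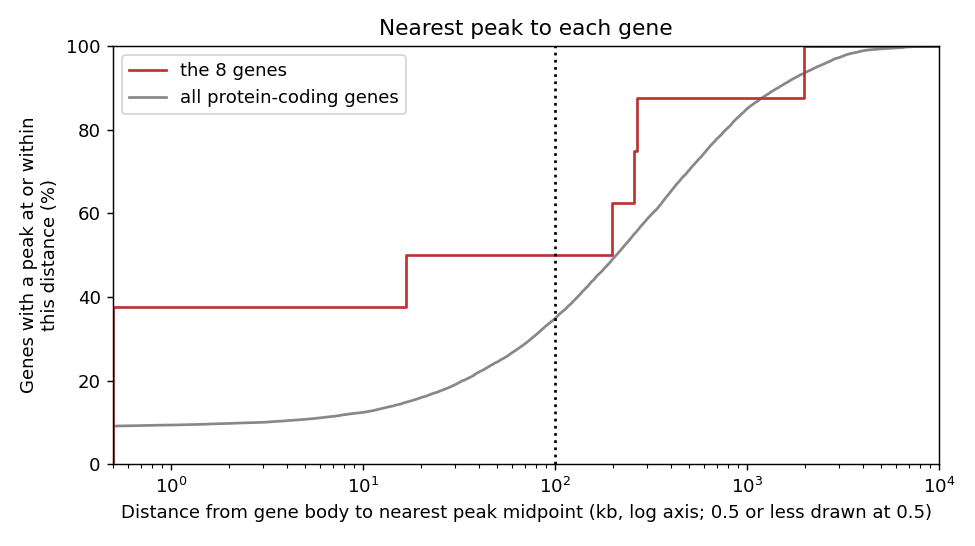
The x axis is the distance in kb (log axis) from a gene body to its nearest peak midpoint, with 0.5 kb or less drawn at 0.5, and the y axis is the percentage of genes with a peak at or within that distance. The red steps are the 8 genes, the grey line is all protein-coding genes, and the dotted line marks 100 kb. At 100 kb the red steps stand at 50% and the grey line at 34.9%.

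No peak was centred close to an end of the 8 genes. The nearest was 16.8 kb from an end of the gene it was counted for, and the farthest 174 kb. Of the 10 peaks, 0 were centred within 1 kb of an end of any annotated gene, protein-coding or not. At this number of peaks, a count of 0 allows a share of up to 30%. Over all peaks on chromosomes 1 to 19 and X, 21.7% were within 1 kb of an end of a protein-coding gene. The share for ends of any annotated gene is not given here and cannot be lower. More than 10 kb from every protein-coding gene end lay 9 of the 10 peaks, against 59.6% of all peaks. More than 50 kb from every such end lay 5 of the 10, against 31.9%. Those 5 were the peaks inside Dach1 and Dach2, the longest of the 8 genes, with bodies of 382.9 and 538.9 kb. The peaks of Eya2 and Six2 all lay nearer to such an end, and these shares are not matched for gene length. Inside the bodies of the 8 genes were 6 of the 10, and 53.7% of all peaks were inside a protein-coding gene. Counted by gene, 3 of 8 had a peak inside, against 7.17% of all protein-coding genes, most of which are shorter than 50 kb. With 10 peaks at 4 genes, peaks of the same gene are not independent, and none of these differences was tested.

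RefSeq start windows, which run from upstream of an annotated start to just past it, on GRCm38.p6, the assembly that mm10 names, were given for Eya3, Eya4, Dach1, Dach2, Six2 and Six4, in 9 windows, and not for Eya1 and Eya2. No peak overlapped any of the 9. Among all genes with a window, 2.99% had one overlapped by a peak. The sequences of the peaks themselves are not shown, since no genome was used here. To show what lies at the starts that the peaks did not cover, the 250 bases before the start are given for Dach1 and Six2, the genes with the most peaks, and for Eya3, which had none. They are credited to RefSeq and written 5′ to 3′ on the strand of the gene. Capitals mark the E-box CANNTG, the hexamer that basic helix-loop-helix dimers bind.
Dach1 (chr14:98169766-98170015, minus strand): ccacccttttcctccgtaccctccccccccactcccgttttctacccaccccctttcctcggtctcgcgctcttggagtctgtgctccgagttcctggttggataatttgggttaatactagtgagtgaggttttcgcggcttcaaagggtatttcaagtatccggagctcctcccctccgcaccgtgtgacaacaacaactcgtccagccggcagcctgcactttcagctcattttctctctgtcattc
Six2 (chr17:85688255-85688504, minus strand): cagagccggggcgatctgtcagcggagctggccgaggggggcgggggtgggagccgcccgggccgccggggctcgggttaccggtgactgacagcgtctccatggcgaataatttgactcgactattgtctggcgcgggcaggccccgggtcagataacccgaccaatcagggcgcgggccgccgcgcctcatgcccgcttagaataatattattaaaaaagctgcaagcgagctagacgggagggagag
Eya3 (chr4:132638796-132639045, plus strand): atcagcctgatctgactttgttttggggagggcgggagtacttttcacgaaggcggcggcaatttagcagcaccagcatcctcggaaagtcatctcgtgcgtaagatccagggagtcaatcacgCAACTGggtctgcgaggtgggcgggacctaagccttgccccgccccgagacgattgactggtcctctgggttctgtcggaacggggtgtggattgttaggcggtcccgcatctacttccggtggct

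The windows of Dach1 and Six2 held no E-box, and that of Eya3 held 1, CAACTG, starting 126 bases before the start site. The midpoint of the nearest peak was 60.7 kb from the Dach1 start, 29.03 kb from the Six2 start and 284 kb from the Eya3 start. CANNTG reads the same on both strands as a pattern. Searched in the 250 bases before each start, it occurred in 3 of the 9 windows, 1 each of Eya3, Eya4 and Dach2. It occurred in 66.2% of 32851 RefSeq windows of the same length. The windows of Eya4 overlap each other, as do those of Six4, so the 9 are not all separate sequences. The E-box at Eya4 was CACTTG and that at Dach2 CACATG. Of the variants searched on both strands, each a case of CANNTG, the hexamer CAGCTG occurred in 0 of the 9 windows, against 13.0% of all windows. The hexamer CATATG occurred in 0 of the 9, against 3.46% of all windows. The hexamer CAGATG or its other strand also occurred in 0 of the 9, against 14.4% of all windows. The GC content was 54.8% at Dach1, 64.8% at Six2 and 58.4% at Eya3, against a median of 52.4% over all windows. These are matches of letters in windows that no peak covered.

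The 10 peaks at the 8 genes all had widths between the 5th and 95th percentiles of the list, 191 and 709 bp. Their median was 404.5 bp (SD 154, range 270 to 699, 10 peaks), against 381 bp for all peaks (quartiles 269 and 486 bp). Of the 10, 7 were at least as wide as that median, against 50.1% of all peaks, a difference that was not tested. The 4 at or above the upper quartile follow, each with the share of all peaks as wide or wider. The widest was the peak between Six3 and Six2, with 5.45% of all peaks as wide or wider. Next came the intergenic peak of Eya2 with 10.6%, the 592 bp peak of Dach1 with 11.6% and the peak nearest to Six3 with 12.1%. The narrowest were those of Dach2 and the one in CJ186046Rik, with 74.7% and 73.1% of peaks as wide or wider. The 4 peaks outside the bodies of the 8 genes, including those in Six3os1 and CJ186046Rik, had a median of 595 bp. The 6 inside had a median of 396 bp, and the ranges overlapped. Width does not measure how much Atoh7 was bound.

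**Figure D4:**
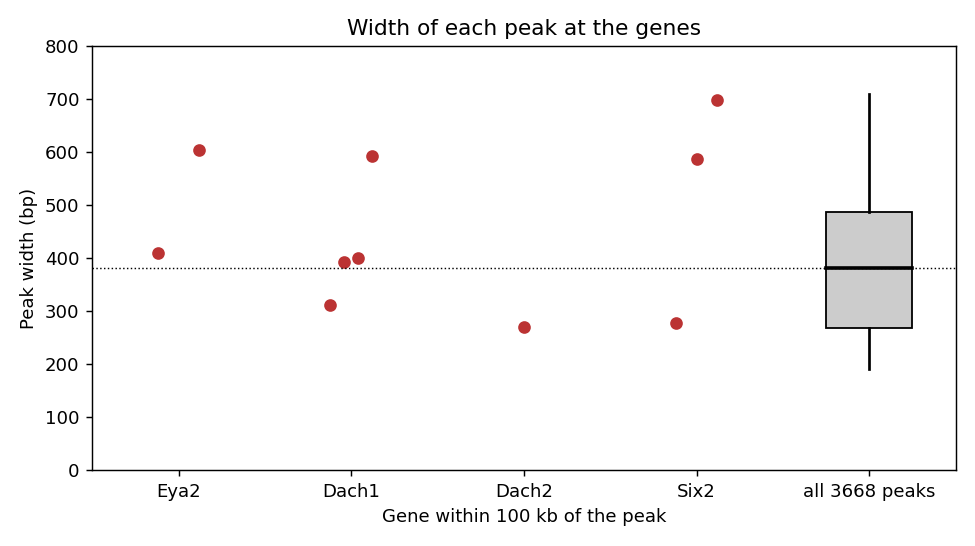
Red points are the widths in bp of the 10 peaks, by gene. The box spans the quartiles of all 3668 peaks, 269 and 486 bp, its bar and the dotted line are the median of 381 bp, and its whiskers reach the 5th and 95th percentiles, 191 and 709 bp. All 10 points lie between the whisker ends.

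Related genes of the same network also included genes with and without peaks. Ski and Skil, relatives of Dach that encode transcriptional co-repressors, held 4 and 2 peaks, and Skor1 and Skor2 held none. Of the peaks of Ski, 1 lay inside the gene and the other 3 lay inside Prkcz, 55.7 to 98.4 kb away. A peak 790 bp wide was centred 0.815 kb from Skil, unlike any peak at Dach1 or Dach2, which all lay more than 50 kb from the gene ends. The other peak counted for Skil was inside Prkci. Among Pax genes of the eye, Pax6 held 2 peaks, centred 8.37 and 56.6 kb from the gene, and Pax2 held none, its nearest peak being 178 kb away. A peak was held by 2 of 3 among Six3, Six5 and Six6, by 2 of 4 Ski and Sno relatives and by 1 of 2 Pax genes, and these lists are too small to be told from the 34.9% of all protein-coding genes. The windows of the 8 genes had 0.311 peaks per 100 kb, against 0.643, 0.624 and 0.384 for these lists in that order. Of the 4 peaks of the list with Six3, 3 are the same peaks counted for Six2. The values and shares of that list and of the 8 genes therefore rest partly on shared peaks.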

How the data were processed

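Sample titles gave the groups, 2 libraries for Atoh7 and 1 for IgG. The submitters' processing notes name the build mm10 and the authors' tools MACS2 2.2.7.1, Bowtie2 2.3.5, bedtools, Picard 2.0.1 and SAMtools, in no stated order. The authors deposited 1 list of 3668 peaks, with start, end and width in bp, counted from 1, per the file headers. All names begin with Atoh7_R1 and run to 7185, so 3517 numbers are absent. How they were removed, and whether replicate 2 or IgG was used for it, was not stated in the sources used. Depth per library is unknown.

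Peaks on chromosomes 1 to 19 and X (3662) were matched by midpoint to 21631 protein-coding genes of RefSeq GRCm38.p6. All 8 genes were found. Ties for the nearest gene went to the gene listed first. Strand came from RefSeq start windows and was not used for Eya1 and Eya2. Named genes were the 8, the nearest genes of their peaks and 9 related genes in 3 lists. Another related gene is not reported here. Members and lists were chosen with earlier results of these data known. The counting step was checked on artificial data with known answers and recovered all of them. No test between groups was run. Python 3.11.15 was used with pandas 2.3.3, numpy 2.4.6, matplotlib 3.10.9 and scipy 1.17.1.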

Additional observations from a re-analysis of the deposited data

How the results depend on the processing

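Distances of 50 and 10 kb, any overlap of 1 bp, nearest protein-coding genes only and peaks at least as wide as the median were tried. The number of genes with a peak stayed between 3 and 4, the 3 arising at 10 kb (without Six2) and with wider peaks (without Dach2). Shares over all protein-coding genes stand with the first count of genes. The number of peaks was 9 at 50 kb and for nearest genes only, 7 for wider peaks, 10 for any overlap and 6 at 10 kb, where Eya2 had 1 peak and Six2 had 0. The median width was 396 to 404.5 bp. Of 20 alternative counts for Eya2, Dach1, Dach2 and Six2, 17 stayed within 1.5 times. The other 4 genes stayed at 0, which narrower rules could not change. No paired analysis was possible because there is 1 peak list with no value per library, and for the same reason no replicate could be left out. Without depth, a gene without a peak cannot be called unbound.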
